A study of Capra hircus with 6 samples.

Results

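The nuclear genes of oxidative phosphorylation, those of the respiratory chain complexes I to IV and of ATP synthase (complex V), were followed in the mammary gland of goats of opposite genotype at CSN1S1, the gene of the milk protein alpha-s1-casein. They were chosen by name: probes whose only gene symbol begins with NDUF, SDHA to SDHD, UQCR, COX4 to COX8 or ATP5, or is CYC1, with 1 probe per gene, the one of brightest signal. This gave 51 genes on 53 probes, among 6535 genes with such a probe. Complex I had 26 of them, complex II 3, complex III 4, complex IV 6 and complex V 12. Of the 51 genes, 46 encode subunits. The other 5 are NDUFAF3, NDUFAF5 and SDHAF3, which are assembly factors, COX7A2L, which helps to join complexes III and IV into supercomplexes, and ATP5IF1, an inhibitor of ATP synthase. NDUFA4 was named as a complex I protein and is placed here with complex IV, where it has since been found.

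Oxidative phosphorylation takes place in the inner mitochondrial membrane. Complexes I and II pass electrons from NADH and succinate to ubiquinone, complex III passes them on to cytochrome c and complex IV to oxygen, and ATP synthase uses the proton gradient that complexes I, III and IV build up to make ATP. Most of the subunits are encoded in the nucleus and a few in mitochondrial DNA, and the milk-secreting gland is a heavy user of the ATP they supply.

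RNA came from the lactating mammary gland of 6 goats, 3 with the Low CSN1S1 genotype and 3 with the High one, and all 6 had been without food for 48 h, so no fed goat is part of any comparison. A Low and a High goat were hybridized together as a pair (pairs A, B and C), once with the Low goat in the dye Cy5 and once in Cy3, which gave 6 arrays and 12 readings of a single goat in a single dye. The arrays carried 8379 oligonucleotide probes, each spotted 2 times. Age, breed and stage of lactation are not stated in the labels. The ratio of a gene is the log2 signal of the Low goat minus that of the High goat, and it is negative where the Low goat had less signal. The ratios of both arrays of a pair were averaged. Where 3 values follow a gene, they are its ratios in pairs A, then B, then C, and means carry their SD over n = 3 pairs.

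CSN1S1 itself was lower in every Low goat, at -2.57, -2.84 and -2.73 (6.55-fold lower, limma adjusted p = 2.91e-09). The share of probes above background was 66.3% to 77.3% in the Cy3 readings and 82.3% to 87.4% in the Cy5 readings, and 36 to 49 of the 51 oxidative phosphorylation genes were above background in a reading. Of 16 listed markers of luminal epithelium 13 had a probe, all were tested, and CSN1S1 alone passed the threshold. The summed level of the other 12 was 42725 to 73259 in Low goats and 44968 to 65682 in High goats. This sum mainly followed the milk protein genes CSN3, PAEP, CSN1S2 and LALBA, with mean signals of 10570 to 17130 against 3040 or less for the rest. Their mean ratios went both ways, at -0.10, -0.44, 0.33 and 0.55. Of all 13 markers 9 lay below 0 by mean ratio, CSN1S1 among them, and 4 above. The 6 measured leukocyte markers summed to 6916, 8405 and 10015 in the Low goats of the 3 pairs and to 7054, 9482 and 10687 in their High partners. The sum was lower in the Low goat of each pair, though the ranges overlapped. ITGB2, by far the brightest of the 6, weighed most in it and gave -0.067, -0.305 and -0.118. By mean ratio 3 of the 6 markers lay below 0 and 3 above, and CD68 was above 0 in each pair, at 0.060, 0.233 and 0.059. The part of cell composition in the ratios below was not tested. The 6 measured muscle markers summed to 5678, 5864 and 5101 in Low goats and 5675, 5869 and 5119 in High goats. For the adipocyte, myoepithelium, red blood cell, fibroblast and endothelium lists the ranges of the sums overlapped as well. In each of these sums the Low goat was lower in some pairs and higher in others. By mean ratio, however, all 4 tested myoepithelium markers lay below 0, from -0.102 to -0.001, and 0 of them passed the threshold. The adipocyte, fibroblast and endothelium lists held markers on both sides of 0.

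Of the 51 genes, 45 were bright enough to be tested, which required a signal above background in at least 6 of the 12 readings. No gene of complexes I to V passed the test between genotypes: 0 of 45 were lower and 0 of 45 higher in Low goats at an adjusted p under 0.05 (limma's moderated test, Benjamini-Hochberg adjustment over 6733 tested probes). Of all tested probes 0.416% passed as lower, 28 in number, and 0.0297% as higher, 2 in number. At an unadjusted p under 0.05, 6 of the 45 genes (13.3%) passed against 11.3% of all tested probes, so the share of these genes lay near that of the array. This count was not stable to leaving out 1 array, which leaves the pair of that array read in 1 dye orientation only. It was 1 without the Cy3 array of pair A or of pair B, and 5 and 7 without their Cy5 arrays. Without the Cy5 and the Cy3 array of pair C it was 2 and 3. The 6 were COX7A2L, NDUFA1, NDUFV1 and ATP5MC1, with ratios above 0, and ATP5MC2 and COX4I1, with ratios below 0. The smallest adjusted p among the 45 genes was 0.311, that of COX7A2L. In whole tissue, fewer cells of a type and less RNA per cell cannot be told apart.

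The ratios of the 45 genes lay closely around 0, with 22 below and 23 above. Their median was 0.0022, beside 0.0031 over all tested probes, and they ran from -0.13 (NDUFB8) to 0.15 (COX7A2L). The median over the 45 genes was -0.0049 in pair A, 0.0028 in pair B and 0.0082 in pair C, close to 0 in each. The median SD over the 3 pairs was 0.068 for these genes and 0.061 for all tested probes. The 95% interval of the ratio in limma's fit stayed within 0.25 log2 units of 0, a 1.19-fold difference, for 44 of the 45 genes. The exception was NDUFB8, whose interval ran from -0.26 to 0.0051, and within 0.5 log2 units, 1.41-fold, lay the intervals of all 45. Over all 6733 tested probes, 6511 intervals stayed within 0.25 log2 units. These intervals hold for background correction with offset 50, and those with offset 10 are not given here. With offset 10 the ratios of some dim genes lay further from 0. COX7B gave 0.208 against 0.12, UQCR10 -0.136 against -0.10 and SDHB -0.074 against -0.043. Of the genes given in full below, ATP5MC3 and UQCRC1 alone moved toward 0 with offset 10.

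By complex, the median ratio was -0.014 for the 22 tested genes of complex I and -0.043 for the 3 of complex II. It was -0.023 for the 2 of complex III, 0.016 for the 6 of complex IV and 0.016 for the 12 of complex V. Each complex held genes on both sides of 0, with 12 below and 10 above in complex I, 2 and 1 in complex II, 1 and 1 in complex III, 2 and 4 in complex IV, and 5 and 7 in complex V. The ratio had the same sign in all 3 pairs for 17 of the 45 genes (37.8%), beside 35.5% of all tested probes. It had the same sign on all 6 arrays for 3 genes (6.67%), beside 2.99% of all tested probes. These 3, NDUFA1, NDUFB9 and COX7A2L, all lay above 0.

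**Figure D1:**
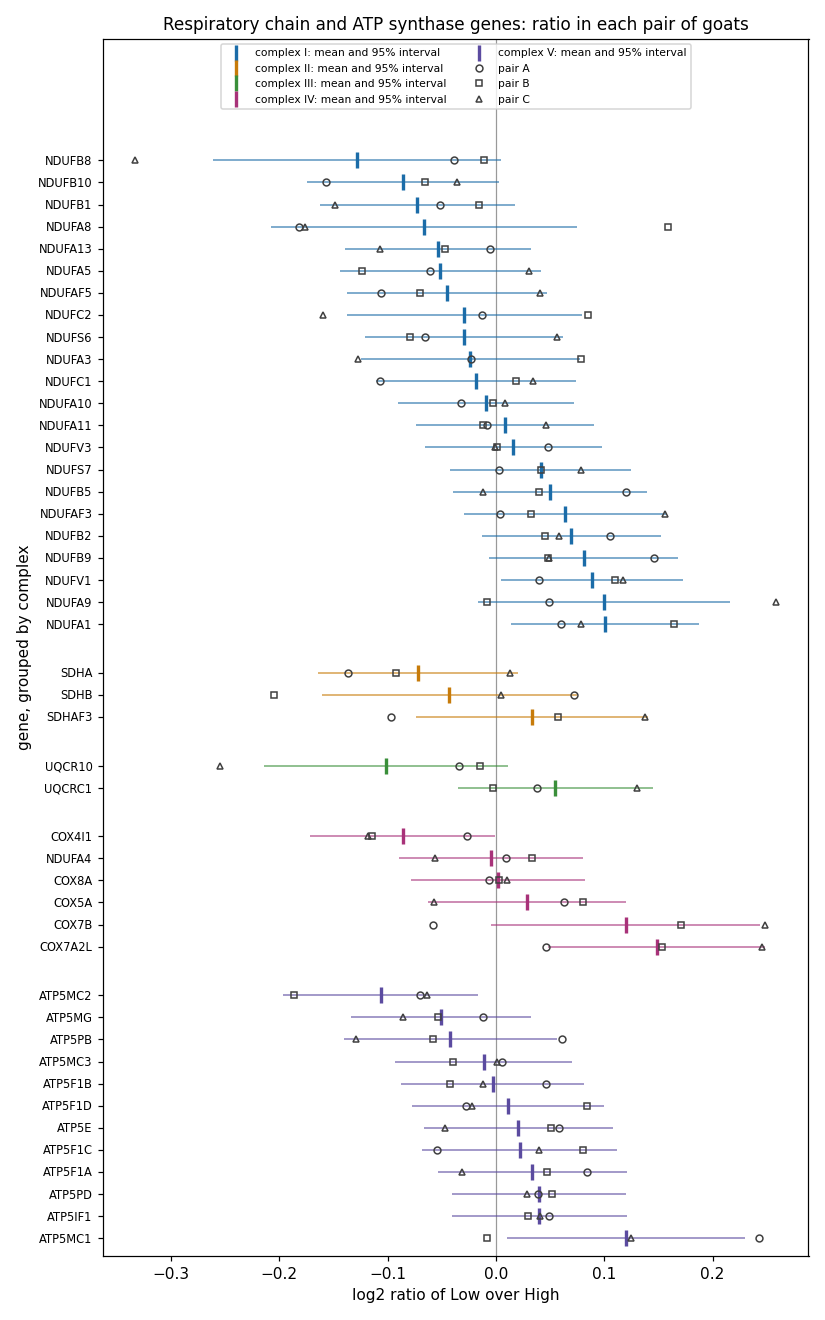
Log2 ratio of Low over High (horizontal axis) for the 45 tested genes, grouped by complex. Open symbols are the 3 pairs of goats, the vertical tick is their mean and the line its 95% interval. Means lie between -0.13 and 0.15 and fall on both sides of 0 in every complex.

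**Figure D2:**
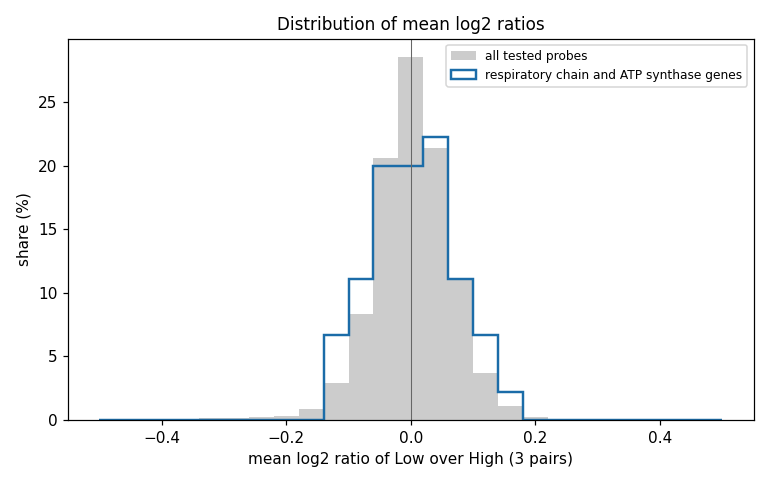
Share of genes or probes, in percent, by mean log2 ratio of Low over High, for the 45 tested genes (outline) and for all 6733 tested probes (grey), of which 12 lie beyond the axis limits of 0.5. Both are centred near 0, with medians of 0.0022 and 0.0031.

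In complex I, the NADH module takes up electrons at the tip of the matrix arm. NDUFV1, the subunit that binds NADH and the flavin, gave 0.040, 0.11 and 0.12, a mean of 0.089 ± 0.042 (adjusted p = 0.415). All 3 pairs were above 0, but its other, dimmer probe gave 0.030, -0.023 and -0.060, a mean of -0.018 ± 0.045, so the direction was not shared by both probes. With loess fitted per print tip its mean was 0.012, and without the Cy3 array of pair B 0.0068. NDUFV3, an accessory subunit of the same module, gave 0.048, 0.0010 and -0.0010, and NDUFS6, which carries a zinc ion, gave -0.065, -0.079 and 0.056. NDUFS4, another accessory subunit, had a signal above background in 1 of the 6 Low readings and 3 of the 6 High ones and was not tested.

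The ubiquinone module connects the NADH module with the membrane. NDUFS7, which holds the last iron-sulfur cluster before ubiquinone, gave 0.0030, 0.042 and 0.079 (mean 0.041 ± 0.038, adjusted p = 0.683), above 0 in each pair and by little more than its SD. The accessory subunit NDUFA9 gave 0.049, -0.0080 and 0.26, so its mean of 0.10 rested mostly on pair C. NDUFA5, another accessory subunit, gave -0.061, -0.12 and 0.031. NDUFS3, a core subunit, had a signal above background in 3 of the 6 Low readings and 2 of the 6 High ones and was not tested.

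The membrane arm, which pumps protons, is represented here by accessory subunits, of which 14 were tested, 9 with a ratio below 0 and 5 above, and with a median of -0.021. NDUFB8 was the lowest of all 45 genes, at -0.039, -0.011 and -0.33 (mean -0.13 ± 0.18, adjusted p = 0.451). Pair C alone set it apart, and without it the mean was -0.025. On the single arrays NDUFB8 gave 0.36, 0.26 and -0.045 with the Low goat in Cy5 and -0.44, -0.29 and -0.62 with the Low goat in Cy3. The sign thus followed the dye in pairs A and B, and both arrays of pair C were below 0. NDUFB10 gave -0.16, -0.065 and -0.036 (mean -0.086 ± 0.063, adjusted p = 0.448), below 0 in each pair and on 5 of the 6 arrays. NDUFB1 was also below 0 in all pairs, at -0.052, -0.016 and -0.15, as was NDUFA13, also known as GRIM-19, at -0.0050, -0.047 and -0.11.

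The highest ratio in the membrane arm was that of NDUFA1, an accessory subunit needed for assembly of complex I. It gave 0.060, 0.16 and 0.079 (mean 0.10 ± 0.055, 95% interval 0.014 to 0.19, adjusted p = 0.390). The arrays gave 0.033 and 0.086 in pair A, 0.16 and 0.16 in pair B, and 0.16 and 0.00 in pair C, so no array was below 0. With loess fitted per print tip the mean was 0.041. The levels on its probe, as log2 normalised signals, were 12.81, 12.05 and 11.50 in the Low goats and 12.75, 11.89 and 11.42 in the High goats. The goats of the same pair thus lay closer to each other than goats of 1 genotype did. NDUFB9 gave 0.15, 0.048 and 0.049 and NDUFB2 0.11, 0.045 and 0.058, and neither passed the test (adjusted p = 0.464 and 0.496). The other 7 tested genes of the arm, NDUFA3, NDUFA8, NDUFA10, NDUFA11, NDUFB5, NDUFC1 and NDUFC2, had means between -0.066 and 0.050 with pairs of both signs. NDUFB4 and NDUFB6 stood above background in 1 of 6 readings of each genotype and were not tested. Of the assembly factors, NDUFAF3 gave 0.0040, 0.032 and 0.16 and NDUFAF5 gave -0.11, -0.070 and 0.041.

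In complex II, which is also the succinate dehydrogenase of the citric acid cycle, the flavoprotein gene SDHA gave -0.14, -0.092 and 0.013 (mean -0.072 ± 0.077, adjusted p = 0.525). The iron-sulfur subunit gene SDHB gave 0.072, -0.21 and 0.0050 (mean -0.043 ± 0.14, adjusted p = 0.764), a spread over pairs that exceeded the mean. SDHAF3, which helps to mature SDHB, gave -0.097, 0.057 and 0.14 (adjusted p = 0.808). No 2 of these 3 genes shared their signs over the pairs.

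In complex III, UQCR10, a small subunit, gave -0.034, -0.015 and -0.26 (mean -0.10 ± 0.13, adjusted p = 0.476). As for NDUFB8, pairs A and B lay near 0 and pair C was lowest, and without pair C the mean was -0.025. UQCRC1, a core protein of the complex, gave 0.038, -0.0030 and 0.13 (mean 0.055 ± 0.068, adjusted p = 0.613), and its arrays were all below 0 with the Low goat in Cy5 (-0.13, -0.19 and -0.063) and all above 0 with the Low goat in Cy3 (0.21, 0.18 and 0.32). UQCRFS1, the Rieske iron-sulfur protein, was not well above background in any of the 12 readings, and UQCRQ, another small subunit, passed background in 1 of the 6 Low readings and 2 of the 6 High ones. Neither was tested.

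In complex IV, cytochrome c oxidase, the catalytic core is encoded in mitochondrial DNA and was not analysed here. The supercomplex factor COX7A2L had the highest ratio of the 45 genes, at 0.046, 0.15 and 0.25 (mean 0.15 ± 0.10, 95% interval 0.048 to 0.25, adjusted p = 0.311). Its ratio was above 0 on all 6 arrays, at 0.043 and 0.049 in pair A, 0.16 and 0.15 in pair B, and 0.29 and 0.20 in pair C, so both dye orientations gave much the same value. With loess fitted per print tip the mean was 0.096. The levels on its probe were 8.01, 8.29 and 8.83 in the Low goats and 7.96, 8.13 and 8.59 in the High goats, lowest in pair A and highest in pair C in both genotypes, and the genotypes overlapped. With an adjusted p of 0.311 the difference did not pass the test over the array.

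COX4I1, the gene of the widely expressed isoform of subunit 4, gave -0.027, -0.11 and -0.12 (mean -0.086 ± 0.051, 95% interval -0.17 to -0.00050, adjusted p = 0.441), below 0 in each pair and on 5 of the 6 arrays. COX7B, a small subunit, gave -0.058, 0.17 and 0.25 (mean 0.12 ± 0.16, adjusted p = 0.451). Its arrays gave -0.17, -0.24 and -0.18 with the Low goat in Cy5 and 0.050, 0.59 and 0.68 with the Low goat in Cy3, so its mean joins opposite readings. COX8A, the widely expressed isoform of subunit 8, gave -0.0060, 0.0030 and 0.010 (adjusted p = 0.984), the smallest spread over pairs of the named genes. COX5A gave 0.063, 0.080 and -0.057 (adjusted p = 0.803) and NDUFA4 gave 0.0090, 0.033 and -0.056 (adjusted p = 0.972). Of the isoform sets of complex IV subunits that were listed for comparison (subunits 4, 6A, 6B, 7A and 8, and NDUFA4), COX4I1, COX7A2L, COX8A and NDUFA4 had a probe that met the choice by name, so no muscle isoform could be set against its widely expressed partner.

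In ATP synthase, the catalytic head is made of the alpha and beta subunits, and the central stalk turns inside it. The alpha subunit gene ATP5F1A gave 0.084, 0.047 and -0.031, and the beta subunit gene ATP5F1B gave 0.046, -0.042 and -0.012. The other probe of ATP5F1B gave 0.19, -0.028 and -0.17, with a mean of -0.0038 beside -0.0029 for the brighter probe. Neither head gene departed from 0 by more than its spread over pairs. The 3 genes of the central stalk, ATP5F1C (gamma), ATP5F1D (delta) and ATP5E (epsilon), had means of 0.022, 0.011 and 0.021, each with at least 1 pair on either side of 0. Of the peripheral stalk, which holds the head still, ATP5PB gave 0.061, -0.058 and -0.13, and ATP5PD gave 0.039, 0.052 and 0.029. A probe annotated to ATP5PB together with a second locus gave 0.096, 0.19 and 0.054, the opposite sign to that of ATP5PB in pairs B and C.

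The membrane ring that proton flow turns is built of subunit c, and 3 genes, ATP5MC1, ATP5MC2 and ATP5MC3, encode this subunit with different import sequences that are removed in the mitochondrion. ATP5MC1 gave 0.24, -0.0080 and 0.13 (mean 0.12 ± 0.13, adjusted p = 0.411), and ATP5MC2 gave -0.070, -0.19 and -0.064 (mean -0.11 ± 0.069, adjusted p = 0.388). ATP5MC3 gave 0.0060, -0.040 and 0.0010 (mean -0.011 ± 0.025, adjusted p = 0.925). The highest and the lowest ratio of complex V were thus those of ATP5MC1 and ATP5MC2, and without pair A the mean of ATP5MC1 was 0.058. The ratio of ATP5MC1 exceeded that of ATP5MC2 by 0.31, 0.18 and 0.19 in the 3 pairs, a mean difference of 0.23 ± 0.076. It exceeded that of ATP5MC3 by 0.24, 0.031 and 0.13, and the ratio of ATP5MC2 was below that of ATP5MC3 in each pair, with differences of -0.076, -0.15 and -0.064. A two-sided exact sign-flip permutation test over the pairs gave p = 0.25 for each of these 3 differences, also after Benjamini-Hochberg adjustment over the 3, which is the smallest p that 3 pairs allow. These differences were computed after the ratios had been seen. ATP5MC2 was below 0 mainly with the Low goat in Cy3, where its mean was -0.23 against 0.013 with the Low goat in Cy5, while ATP5MC1 was above 0 in both orientations, at 0.17 in Cy5 and 0.073 in Cy3. ATP5MG, a subunit of the membrane part near which 2 synthases meet, gave -0.012, -0.053 and -0.086 (adjusted p = 0.618). The inhibitor ATP5IF1 gave 0.049, 0.030 and 0.041 (mean 0.040 ± 0.0094, adjusted p = 0.680), a small value above 0 in each pair, but its 2 dye orientations gave 0.13 and -0.053.

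The ratio of many of these genes, as of many probes on the array, depended on the dye in which the Low goat was labelled. For 11 of the 45 genes (24.4%) the 3 arrays that held the Low goat in Cy5 all had 1 sign and the 3 that held it in Cy3 all had the other, beside 33.6% of all tested probes. These were NDUFA8, NDUFA10, NDUFA11, NDUFS6, NDUFV3, UQCRC1, COX7B, COX8A, ATP5F1A, ATP5F1B and ATP5MC3. The extremes were NDUFS6, with means of -0.39 in the Cy5 and 0.33 in the Cy3 orientation, and NDUFA8, with 0.32 and -0.45. Averaging both orientations brought these genes to -0.029 and -0.066. ATP5F1A gave -0.29 and 0.36, COX7B -0.20 and 0.44, and all of these pairs of values describe a single set of RNA samples read in exchanged dyes.

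Across the 45 genes, the ratios of both arrays of a pair were inversely related in pairs A and B (Pearson r = -0.65 and -0.67), less so in pair C (r = -0.13). The same held over the 6732 tested probes other than CSN1S1, at -0.58, -0.58 and -0.17. The averaged ratios of different pairs of goats were only weakly related over the 45 genes, with r = 0.12 for pairs A and B, 0.24 for A and C and 0.24 for B and C. Over the 6732 probes they were 0.26, 0.28 and 0.36. The dye effect itself, the difference between orientations, was shared by pairs, with r = 0.84, 0.69 and 0.62 over the 45 genes. Over the 6732 probes r was much the same, at 0.84, 0.72 and 0.71. These correlations are across genes that share arrays, which are not independent replicates, and describe these arrays only.

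**Figure D3:**
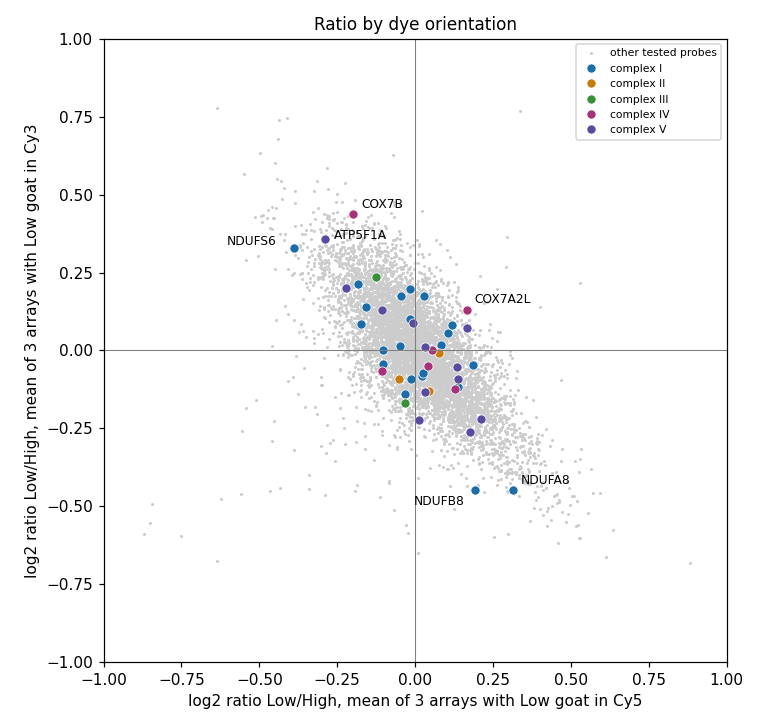
Mean log2 ratio of Low over High over the 3 arrays with the Low goat in Cy5 (horizontal) and over the 3 with the dyes exchanged (vertical), for the 45 tested genes coloured by complex and the other tested probes in grey, with 5 probes beyond the axis limits of 1. Most labelled genes, such as NDUFS6 (-0.39 and 0.33) and COX7B (-0.20 and 0.44), lie in quadrants of opposite sign, and COX7A2L (0.17 and 0.13) lies above 0 in both.

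For most of these genes the level varied more over the goats of a genotype than the ratio did over pairs. On the log2 scale the level of a gene ranged over the 6 goats by a median of 0.57, from 0.11 for ATP5F1A to 1.99 for NDUFA11. NDUFA11, an accessory subunit of the membrane arm, stood at 11.86, 9.88 and 10.27 in the Low goats and at 11.86, 9.89 and 10.23 in the High goats, so that its level differed by pair and its ratio lay near 0 in each. UQCRC1 likewise stood at 11.66, 10.65 and 10.91 in Low and 11.62, 10.66 and 10.78 in High goats, and COX8A at 14.43, 13.53 and 14.10 in Low and 14.44, 13.53 and 14.09 in High goats. In contrast, ATP5F1A stood at 9.55, 9.48 and 9.51 in Low and 9.46, 9.44 and 9.54 in High goats. The median SD of the level over goats was 0.252 in Low and 0.272 in High goats. The SD of a gene's level was above that of its pair ratios in 41 of 45 genes for Low and 40 of 45 for High goats. No such counts over all tested probes are given here, so the pattern cannot be called particular to these genes. Among the 45 genes the exceptions included UQCR10 and COX7B. Their SD over High goats was 0.049 and 0.051, below their SD over pair ratios of 0.133 and 0.159. Both goats of a pair were read on the same arrays, so a difference between pairs of goats and one between arrays cannot be told apart. For 0 of the 45 genes were the levels of the 3 Low goats all above or all below those of the 3 High goats, beside 1.16% of all tested probes.

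**Figure D4:**
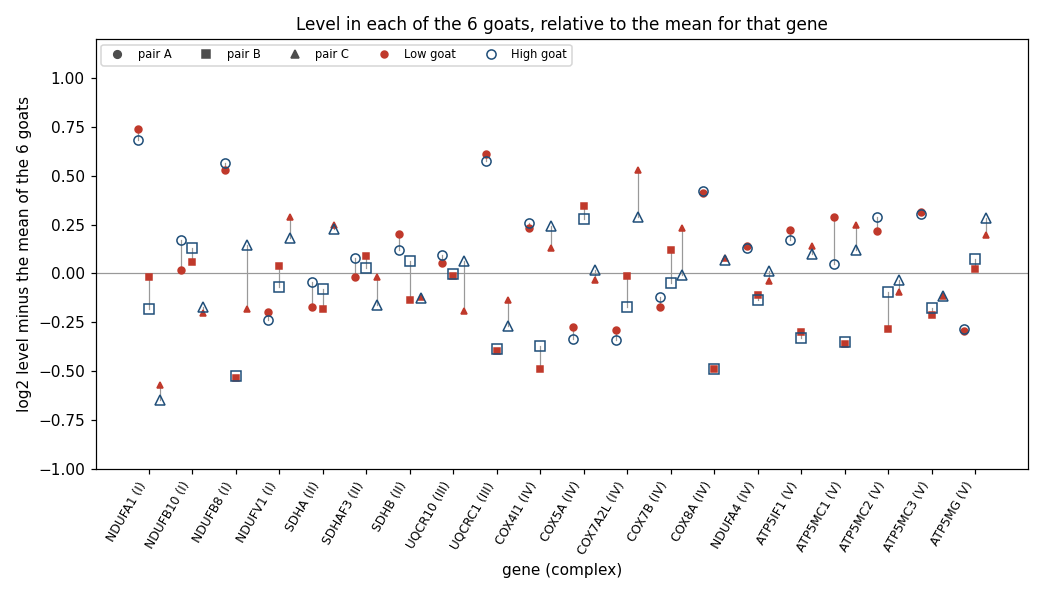
Log2 level of 20 genes in each goat, minus the mean of that gene over the 6 goats (vertical axis), with the complex in brackets. Filled symbols are Low and open symbols High goats, shapes stand for the pairs and a line joins the goats of a pair. Low and High goats overlap for every gene shown. For genes such as NDUFA1 and COX8A the goats of a pair lie close together, while for UQCR10 and COX7B the goats of pair C differ by much of the range over all 6.

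Genes around the respiratory chain were read in the same way from lists of their functions. Of 46 listed genes for assembly and RNA maintenance of the complexes (apart from the 3 assembly factors above), 12 were tested, 1 fell and 0 rose, beside 0.416% of all tested probes lower and 0.0297% higher. The gene that fell was LRPPRC, which binds and stabilizes mitochondrially encoded mRNAs, at -0.92, -0.63 and -0.47 (mean -0.67 ± 0.23, adjusted p = 0.00242) and below 0 on all 6 arrays. OXA1L, which inserts proteins into the inner membrane, gave 0.0050, -0.29 and -0.25 and did not pass (adjusted p = 0.321). The median of the 12 was 0.0052. Of 26 listed symbols of mitochondrially encoded subunits 0 were found among the probes, so transcripts encoded in mitochondrial DNA, those that LRPPRC binds, were not analysed here.

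Of 20 listed genes of electron carriers and ubiquinone synthesis 8 were tested and 0 passed in either direction, with 6 below and 2 above 0 and a median of -0.028. PDSS2, which helps to make the side chain of ubiquinone, gave 0.060, 0.13 and 0.17 (adjusted p = 0.330). Of 15 listed carriers of nucleotides, phosphate and anions 7 were tested and 0 passed, among them the adenine nucleotide translocase SLC25A6 at 0.067, -0.062 and -0.25 (adjusted p = 0.590) and the phosphate carrier SLC25A3 at 0.0020, 0.10 and 0.056 (adjusted p = 0.607). Both supply ATP synthase with its substrates. The mitochondrial creatine kinase gene CKMT1A, also on this list, gave -0.082, -0.017 and -0.099 (adjusted p = 0.521). The median of the 7 tested genes, which also include the uncoupling protein gene UCP3, was -0.017.

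Of 26 listed genes of pyruvate dehydrogenase and the citric acid cycle, which feed the chain with NADH and succinate, 15 were tested and 0 passed, with 8 below and 7 above 0 and a median of -0.026. SUCLG1 and SUCLG2, which encode the alpha subunit and a beta subunit of succinyl-CoA ligase, were both below 0 on all 6 arrays. Their means were -0.072 ± 0.025 and -0.090 ± 0.036 (adjusted p = 0.477 and 0.413), and 2.99% of all tested probes had the same sign on all 6 arrays. SUCLA2, of the same ligase, had pairs of both signs, at -0.054, 0.039 and -0.10. PDHX, of the pyruvate dehydrogenase complex, was above 0 in each pair, at 0.011, 0.12 and 0.12 (adjusted p = 0.451). Of 21 listed genes of mitochondrial biogenesis and mtDNA expression 9 were tested and 0 passed, with 3 below and 6 above 0 and a median of 0.040. PPARGC1A, a coactivator of mitochondrial biogenesis, gave 0.012, 0.26 and 0.16 (mean 0.14 ± 0.13, adjusted p = 0.345). MTERF4 gave 0.15, 0.030 and 0.052 and PPRC1 gave 0.061, 0.073 and 0.070 (adjusted p = 0.488 and 0.496). The transcription factor gene NRF1, a regulator of respiratory chain genes, was among those below 0, at -0.025, -0.047 and -0.13 (adjusted p = 0.525).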

How the data were processed

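The deposited scanner files give, for each of 19200 spots and each dye, intensity values of the spot and its background, read with ImaGene 6.0 per the labels (6.0.1 per the file headers). Background is not subtracted in them. They also hold the SD of the background signal and the scanner's flag score, per the file headers. The authors' log2 ratios in the deposited series table, whose normalization the sources used here do not give, served as an alternative. In 20 intensity bins per array their correlation with the scanner files' Low over High ratios was 0.896 or more, the slopes were 0.812 to 1.00, and column medians were -0.014 to 0.0034. Goat and dye in the file headers matched the labels in 12 of 12 files, and the pairing comes from the labels and the shared arrays.

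The values were computed with limma (version 3.58.1, R 4.3.3) by normexp background correction (offset 50) and 1 loess curve per array. Between 26 and 67 spots per array that the scanner software called manual or poor were dropped, and spots of a probe and both arrays of a pair were averaged. Levels of a single goat are channel values after loess and Aquantile scaling. A probe was tested when it had a value on all 6 arrays and its signal passed background plus 2 background SDs in 6 or more of 12 readings. Pair means (n = 3) were tested against 0 with limma's moderated test, Benjamini-Hochberg adjusted over 6733 probes at 0.05. A pooled spread with 7.47 degrees of freedom outweighs the 2 of a probe's own pairs there. The procedure was tested on simulated data. The changes planted there were all larger than any ratio of the oxidative phosphorylation genes, so whether changes of the size seen here would pass was not tested. The number of pairs limits the precision.

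Gene symbols come from the platform annotation (6840 probes have 1 symbol, 93 several and 1446 none). No coordinates were used, since no genome build is named. Named in full were, per complex, the 4 tested genes of smallest unadjusted p, listed isoform sets and genes whose probes differed in sign, and up to 3 per other list. Further values of single genes, the differences between subunit c genes and the counts by dye orientation and by overlap of goat levels were chosen after values were seen. The genes, lists and tests were chosen with earlier results of these data known.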

Additional observations from a re-analysis of the deposited data

How the results depend on the processing

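The count of oxidative phosphorylation genes past the threshold was 0 lower and 0 higher in 21 of 23 settings, among them no replicate block (goats unpaired) and all 9 settings that left out a pair or an array, as well as among the 40 tested subunits alone and over all 47 tested probes of these genes. The exceptions used 1 dye orientation, where dye and genotype cannot be told apart: with the Low goat in Cy5 4 genes passed as lower and 2 as higher (17.1% of all probes passed), and with the Low goat in Cy3 6 and 9 (36.4%). Of these, 6 genes passed with the sign opposite to their averaged ratio: ATP5MC3 (0.20, adjusted p = 0.0113) and NDUFS6 (0.33) in Cy3, and COX7B (-0.20, adjusted p = 0.0400), NDUFA8 (0.32), ATP5F1A (-0.29) and ATP5F1B (0.21) in Cy5. The median ratio of 0.0022 was 0.0091 without background correction, 0.0136 in the authors' series table and 0.0229 with the Low goat in Cy5. It was -0.0054 to 0.0144 on leaving out a pair or an array (lowest without the Cy3 array of pair B, highest without that of pair A). Apart from the dye settings the cause was not tested. Of the 20 genes given in full, 7 kept their sign in every setting that tested them and 13 never passed. Over all probes, 30 passed in the main setting, 66 without pair A, 3 to 11 without 1 array, 59 with the pair as a random block, 19 with offset 10 or with signal medians, and 0 unpaired, where 0 of the 45 genes passed at an unadjusted p under 0.05 in limma, against 6 in the paired test and 1 to 8 on leaving out a pair or an array.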
